A study of Mus musculus with 12 samples.

Results

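The response of wild-type lung to ozone (O3) was measured on 6 of the 12 arrays of the series, 3 from WT mice that breathed filtered air (WT-Air) and 3 from WT mice exposed to O3 (WT-O3), as the sample titles name them. The mice were males of the B6129PF2/J hybrid stock, aged 6 to 8 weeks, with both Nfkb1 alleles intact (Nfkb1+/+), and each array held the RNA of 1 mouse. O3 was given at 0.3 ppm without interruption for 48 h and the lungs were taken directly afterwards. The air mice were kept in a chamber of their own, so that chamber and exposure cannot be told apart. The other 6 arrays, 3 in air and 3 after O3, came from Nfkb1-/- mice, in which the p105 precursor of NF-κB p50 is missing. The paper lists these mice under a stock name other than that of the WT mice, so that genotype and stock cannot be told apart. The 6 arrays of the Nfkb1-/- mice entered the model for its estimate of the spread and are set beside the WT mice at the end.

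O3 is an oxidant gas that reacts with the lipids and proteins of the fluid and cells lining the airways. The epithelium at the bronchiole-alveolar junction, with its ciliated cells and alveolar type I cells, is the classical site of injury. Damaged epithelium releases cytokines, closes its junctions again, spreads and divides, while club cells and alveolar type II cells act as progenitors. Because the RNA came from homogenised left lung, per the labels, fewer cells of a type and less RNA per cell cannot be told apart in any value below.

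Across the 6 WT arrays the median deposited signal lay between 102.5 and 121.2 and the epithelial markers of lung were bright, at log2 signals of 14.31 to 14.58 for the surfactant gene Sftpc and of 14.79 to 14.90 for the club cell gene Scgb1a1 in every array. Some technical values moved with exposure. The 3'/5' signal ratio of Gapdh, a measure of RNA length, was 0.813 to 0.934 in WT-Air and 0.682 to 0.705 in WT-O3, that of beta-actin was 1.40 to 1.47 and 1.16 to 1.28, and the mean log2 signal of the poly-A spike-in probe sets was 9.61 to 9.98 and 8.97 to 9.32. The mean log2 signal of the hybridisation controls was 11.64 to 11.76 in WT-Air and 11.41 to 11.52 in WT-O3. The part of these technical values in the results was not tested. WT-Air replicate 3 also carried skeletal muscle RNA. Its log2 signal of Myh4, a fast muscle myosin, was 12.31, against 0.67 to 4.25 in the other WT arrays, and the summed signal of 12 muscle markers was 1442 to 44091 in WT-Air and 638 to 1214 in WT-O3. The same array had the highest median of the 6 for the markers of B cells (0.84 above the WT-Air mean of each gene, log2), plasma cells (0.73) and adipocytes (1.18, with 0.98 in WT-Air replicate 1), and WT-Air replicate 1 had the highest for cardiac muscle of the pulmonary veins (1.37).

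Among 17569 genes tested with limma, 949 (5.4%) differed between WT-O3 and WT-Air at an adjusted p under 0.05, 555 (3.16%) higher after O3 and 394 (2.24%) lower. These 3 percentages are the background against which the counts per gene group below can be read. The changes were mostly small, with a median fold of 1.58 among rises and 1.52 among falls, and 131 rises and 69 falls reached 2-fold. Only 25 rises and 11 falls reached 4-fold. The 3 O3 mice lay entirely above or entirely below the 3 air mice for 947 of the 949 genes, and for 4852 (27.6%) of all genes tested. Lack of overlap in a called gene, where described below, therefore adds no support to its call.

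**Figure D1:**
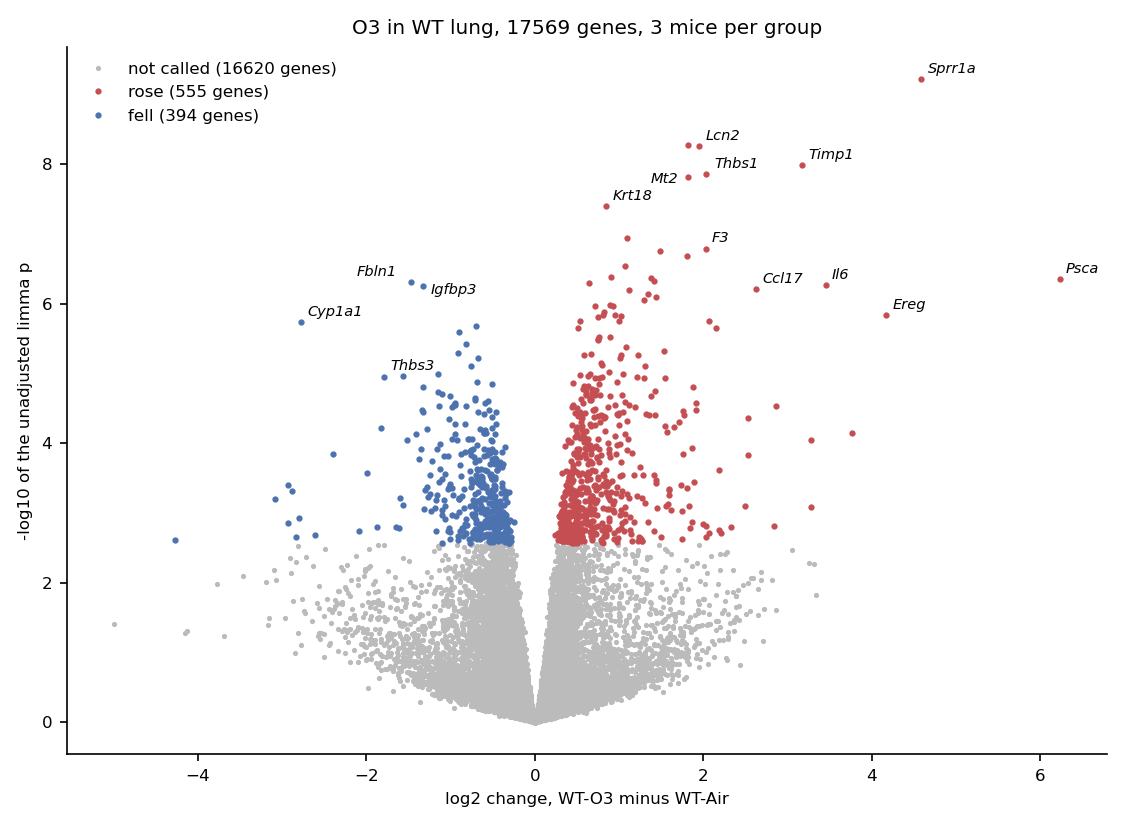
Each point is 1 of 17569 genes, with the log2 change (WT-O3 minus WT-Air) on the x axis and -log10 of the unadjusted limma p on the y axis. Red points are the 555 genes that rose, blue points the 394 that fell and grey points the genes not called. Sprr1a, Psca, Ereg and Timp1 lie far to the right, and the falls stay closer to 0 than the rises.

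The number of called genes depended on single arrays. Leaving out WT-Air replicate 1 gave 531 genes and leaving out WT-Air replicate 3 gave 439, with 467, 292 and 440 for WT-O3 replicates 1, 2 and 3 and 769 without both arrays that stood apart, WT-Air replicate 3 and Nfkb1KO-Air replicate 1. With arrays centred on their medians in place of quantile normalisation only 87 genes were called, 76 rises (87.4% against 58.5%) and 11 falls, and the median log2 change of all genes was 0.02 in place of -0.03. Centring without Nfkb1KO-Air replicate 1 gave 783, and centring the 6 WT arrays by themselves 459. Counts per gene list moved as well, and the shifts given with the lists are mostly those with 1 array left out. Median centring often left fewer calls than these. Of 9 rises in epithelial injury and repair it left 3, of 9 in cholesterol biosynthesis 2 and of 10 in ribosome biogenesis 1. It left 0 of 6 falls among heat shock proteins and all 5 rises among acute-phase proteins.

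The largest rises, taken among called genes with no overlap between the groups and a higher group mean above the median gene, were of mixed function, among them epithelial surface and cornified envelope proteins, a growth factor, a chemokine, acute-phase proteins and genes of matrix and coagulation. Psca, a GPI-anchored protein of epithelial surfaces, had log2 signals of 6.01, 2.93 and 3.93 in WT-Air and of 10.42, 10.69 and 10.46 in WT-O3. Every O3 mouse was far above every air mouse, and since 2 of the air values lay below the lower limit of 4.37 the fold is given as at least 48.6 (log2 6.23 ± 0.66, SE, n = 3 per group, adjusted p = 0.00049). Sprr1a, a small proline-rich protein that is cross-linked into the cornified envelope, went from 6.99, 5.75 and 6.79 to 11.01, 11.27 and 11.01. That is a 24.0-fold rise (log2 4.59 ± 0.27, adjusted p = 1.1e-05), the smallest p of all genes tested. Ereg encodes epiregulin, a ligand of the EGF receptor, and was at 6.25, 4.84 and 3.77 in air and 8.97, 9.48 and 8.92 after O3, at least 15.7-fold higher (adjusted p = 0.00079). Tgm1, the transglutaminase that cross-links the cornified envelope, rose 4.19-fold, and Prss22, a serine protease of airway epithelium, rose 5.78-fold. Fbp2, a fructose bisphosphatase, had values of 5.02, 7.05 and 7.04 in air and of 10.80, 9.39 and 8.75 after O3. The groups did not overlap, but the O3 mice were spread over more than 2 log2 units (9.70-fold, adjusted p = 0.0074). Zfp330, a zinc finger protein, also belonged to the 15 largest rises (4.18-fold, adjusted p = 0.042), although WT-Air replicate 1, at 10.45, lay just below the O3 mice at 10.52 to 10.80 and the other air mice were at 7.63 and 7.72.

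**Figure D2:**
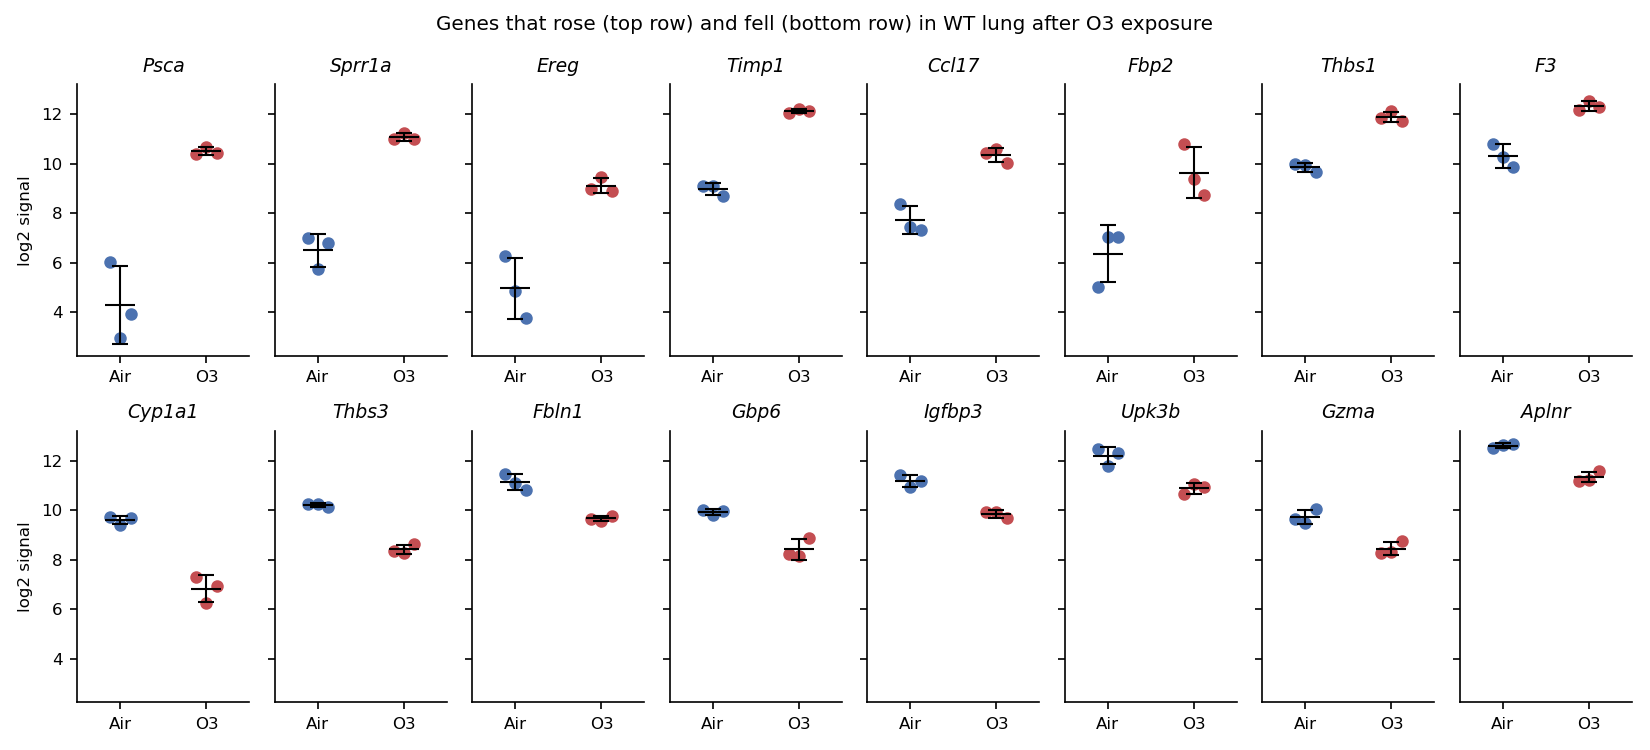
Log2 signal (y axis, same scale in all panels) of 8 genes that rose (top row) and 8 that fell (bottom row) in the 3 WT-Air mice (blue) and the 3 WT-O3 mice (red), with 1 point per mouse and the mean ± SD in black. In each of the 16 panels no O3 mouse overlaps an air mouse, which was a condition for choosing all of these genes except Gzma and Aplnr. Psca and Ereg are near the lower limit of 4.37 in some air mice, and Fbp2 has the widest spread after O3.

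Simple keratins and junction proteins of epithelium were among the rises too. Of 19 measured genes of epithelial injury and repair, 9 rose and 0 fell. Their median log2 change was 0.73. Krt18, a keratin of simple epithelia, was at 12.39, 12.21 and 12.30 in air and 13.05, 13.22 and 13.15 after O3, a 1.80-fold rise (adjusted p = 9.9e-05). Other simple keratins were called too, Krt8 at 1.65-fold, Krt19 at 1.86-fold and Krt7 at 1.70-fold. Cldn4, a sealing claudin, went from 8.75, 8.57 and 8.73 to 10.19, 10.22 and 10.08 (2.80-fold, adjusted p = 0.0003). The O3 mice lay close together and well above the air mice. Tnfrsf12a, the receptor of the cytokine TWEAK, rose 3.48-fold, Plaur, the urokinase receptor, 2.10-fold and Lgals3, galectin-3, 1.43-fold. Among 15 tight junction genes 3 rose and 0 fell, namely Cldn4, Cldn2 (2.41-fold), a pore-forming claudin, and Cgn (1.70-fold, with 1 of its 2 probe sets positive), the scaffold cingulin. The basal cell keratin Krt5 had a log2 change of -0.62 ± 0.58 and was not called.

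The gene families that are active when cells replicate DNA and divide were higher after O3 almost throughout. Of 33 genes of the G1/S transition and DNA replication, 32 had a positive change, the median was 0.71, and 8 rose while 0 fell. Ccne2, a cyclin of S phase entry, went from 6.16, 6.21 and 6.17 to 7.70, 7.97 and 8.14 (3.37-fold, adjusted p = 0.028). Rrm2, the regulated subunit of ribonucleotide reductase, rose 2.95-fold, the replicative helicase subunit Mcm5 2.14-fold, the sliding clamp Pcna 1.60-fold and Rrm1 1.95-fold. Hells, a chromatin remodelling helicase of dividing cells, was among the 15 largest rises and went from 6.72, 7.17 and 7.27 to 8.69, 9.04 and 9.15 (3.75-fold). Every O3 mouse exceeded every air mouse for Ccne2 and Hells. This count was 0 without WT-O3 replicate 2 and 16 without Nfkb1KO-Air replicate 1.

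Mitotic genes moved further. Over 5 lists with 74 measured genes, 72 changes were positive, the median was 1.00, and 16 genes rose while 0 fell. The groups did not overlap for 60 of the 74, against 27.6% of all genes tested. Cdk1, the kinase that drives entry into mitosis, had log2 signals of 7.37, 6.85 and 7.61 in WT-Air and 8.91, 9.11 and 9.23 in WT-O3 (3.49-fold, adjusted p = 0.018). Mki67, which coats mitotic chromosomes and encodes the proliferation marker Ki-67, went from 8.77, 8.34 and 8.82 to 9.72, 9.83 and 10.19 (2.40-fold, adjusted p = 0.047). In both genes the lowest O3 mouse was above the highest air mouse. Among the mitotic kinases and checkpoint genes 5 of 15 rose, Aurkb (4.54-fold) and Melk (3.71-fold) furthest and Mad2l1 of the spindle checkpoint with the smallest p (2.49-fold, adjusted p = 0.0047). Other rises were in Anln (2.99-fold), a scaffold of the cleavage furrow, the condensin subunit Smc2 (1.85-fold), Cenpf (2.42-fold) of the kinetochore and Tpx2 (2.82-fold), a spindle assembly factor. For Tpx2 only 2 of the 4 probe sets had a positive change. Pttg1, securin, went the other way without a call (log2 -1.19 ± 0.41, adjusted p = 0.12). The 16 rises became 2 without WT-O3 replicate 3, 3 without WT-O3 replicate 2 and 31 without Nfkb1KO-Air replicate 1, while the median stayed between 0.92 and 1.05.

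The promoters of 3 of these genes are shown because cell cycle genes are known to share the CHR element (TTTGAA) close to their start, often beside a CCAAT box (CCAAT). Each line is a 120-base stretch before the RefSeq start of the gene (GRCm38.p6), 5′ to 3′ on the strand of the gene, and capitals mark both motifs on either strand. Cdk1 lies at chr10:69352913-69353032, Cks1b, a cyclin-dependent kinase subunit that rose 2.07-fold, at chr3:89418292-89418411, and Mki67 at chr7:135716418-135716537, all on the minus strand.

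Cdk1: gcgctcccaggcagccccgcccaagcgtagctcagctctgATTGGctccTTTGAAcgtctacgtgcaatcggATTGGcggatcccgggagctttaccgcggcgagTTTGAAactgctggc
Cks1b: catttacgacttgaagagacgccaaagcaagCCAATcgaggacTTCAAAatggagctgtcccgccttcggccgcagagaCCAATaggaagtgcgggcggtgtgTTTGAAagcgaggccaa
Mki67: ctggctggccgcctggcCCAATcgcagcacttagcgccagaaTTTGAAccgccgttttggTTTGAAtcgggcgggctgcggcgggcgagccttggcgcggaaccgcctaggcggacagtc

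All 3 windows hold the CHR letters and CCAAT. Searched on both strands of the 250 bases before the start, TTTGAA was present in 24 of 62 mitotic genes with a sequence (38.7%), in 4 of 28 G1/S genes (14.3%) and in 13.8% of the 13972 tested genes with a sequence. CCAAT was present in 67.7% of the mitotic genes and in 39.3% of the tested genes. A match is a run of letters and does not show that a factor binds there.

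Growth genes accompanied the division genes. All 20 genes of ribosome biogenesis and polyamine synthesis had a positive change, 10 rose and 0 fell, and the median was 0.39. Srm, spermidine synthase, went from 9.80, 9.56 and 9.55 to 10.58, 10.56 and 10.48 (1.87-fold, adjusted p = 0.00049), and the nucleolar GTPase Gnl3 from 9.88, 9.68 and 9.73 to 10.47, 10.44 and 10.37 (1.58-fold). Neither gene showed any overlap between air and O3 mice. Ncl, nucleolin, rose 1.46-fold, Nolc1 1.73-fold, and Nop58, a core protein of box C/D particles, 1.85-fold. The count was 4 without WT-O3 replicate 2. Myc, the transcription factor known to drive this programme, was itself 2.43-fold higher (8.02, 7.67 and 7.87 against 9.06, 9.38 and 8.96, adjusted p = 0.015).

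In sterol synthesis all 17 measured enzymes of cholesterol biosynthesis had a positive change, 9 rose and 0 fell, and the median was 0.76. Fdps, farnesyl diphosphate synthase, went from 10.36, 9.87 and 10.06 to 11.35, 11.32 and 11.54 (2.48-fold, adjusted p = 0.0023), and Idi1, the isomerase one step before it, from 10.81, 11.03 and 10.87 to 11.70, 11.88 and 11.60 (1.77-fold, adjusted p = 0.00079). Air and O3 mice were clearly apart for both enzymes. The later enzymes Cyp51 (1.99-fold), Msmo1 (1.71-fold), Hsd17b7 (1.70-fold) and Sqle (1.61-fold) were called as well. The sterol exporters went the other way, with falls in Abca1 (1.67-fold) and Abcg1 (1.41-fold), 2 of the 6 genes of cholesterol efflux, and 1 without WT-Air replicate 2. Of 15 genes of fatty acid synthesis only Acsl4, which activates arachidonic acid, rose (1.34-fold), with 0 rises by limma without WT-Air replicate 1, and the median was -0.11. The cholesterol count was 5 without WT-O3 replicate 2.

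In the promoters of the cholesterol enzymes the CCAAT letters were present in 14 of 14 genes with a sequence, against 39.3% of tested genes, and the sterol regulatory element, searched as TCACNCCAC, in 1 of 14 (7.14%) against 1.25%. Idi1 (chr13:8885486-8885605, plus strand) and Hmgcs1 (chr13:119690154-119690273, plus strand) are printed from GRCm38.p6 because they hold these letters, although Hmgcs1 was not called (log2 change 0.36 ± 0.14, adjusted p = 0.179), with both motifs in capitals on either strand.

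Idi1: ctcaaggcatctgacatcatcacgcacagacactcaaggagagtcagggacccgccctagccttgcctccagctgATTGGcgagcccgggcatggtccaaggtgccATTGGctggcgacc
Hmgcs1: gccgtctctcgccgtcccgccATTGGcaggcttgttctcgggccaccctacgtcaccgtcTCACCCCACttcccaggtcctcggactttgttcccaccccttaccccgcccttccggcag

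Direct antioxidant defence changed in a few genes. Metallothioneins bind zinc and copper and scavenge oxidants. Mt2 was at 11.07, 10.89 and 11.18 in air and 12.91, 13.06 and 12.64 after O3 (3.53-fold, adjusted p = 4.4e-05), and Mt1 rose 1.84-fold. Both genes separated the groups without overlap. Of 24 targets of NRF2, the transcription factor of the oxidant response, 3 rose and 0 fell, with a median of 0.12. These were Gsta3, a glutathione transferase (11.75, 11.91 and 11.97 against 12.76, 12.57 and 12.44, 1.64-fold), the thioredoxin reductase Txnrd1 (1.51-fold) and Gclc, the catalytic subunit that limits glutathione synthesis (1.66-fold). Nqo1 (log2 -0.10 ± 0.24) and Hmox1 (0.26 ± 0.10), the textbook members, were not called. Glrx, glutaredoxin, rose 1.68-fold. The antioxidant response element, searched as TGACNNNGC on both strands, was present in 4 of 19 NRF2 targets with a sequence (21.1%), in 3 of 14 cholesterol genes (21.4%), in 16.1% of the mitotic genes and in 13.5% of tested genes. It is in capitals in the windows of Txnrd1 (chr10:82859054-82859173, plus strand) and Gsta3 (chr1:21240404-21240523, plus strand).

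Txnrd1: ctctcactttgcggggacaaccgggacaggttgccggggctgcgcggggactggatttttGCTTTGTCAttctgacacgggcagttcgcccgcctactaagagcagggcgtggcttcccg
Gsta3: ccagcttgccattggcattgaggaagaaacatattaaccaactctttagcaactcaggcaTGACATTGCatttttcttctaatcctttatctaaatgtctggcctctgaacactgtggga

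**Figure D3:**
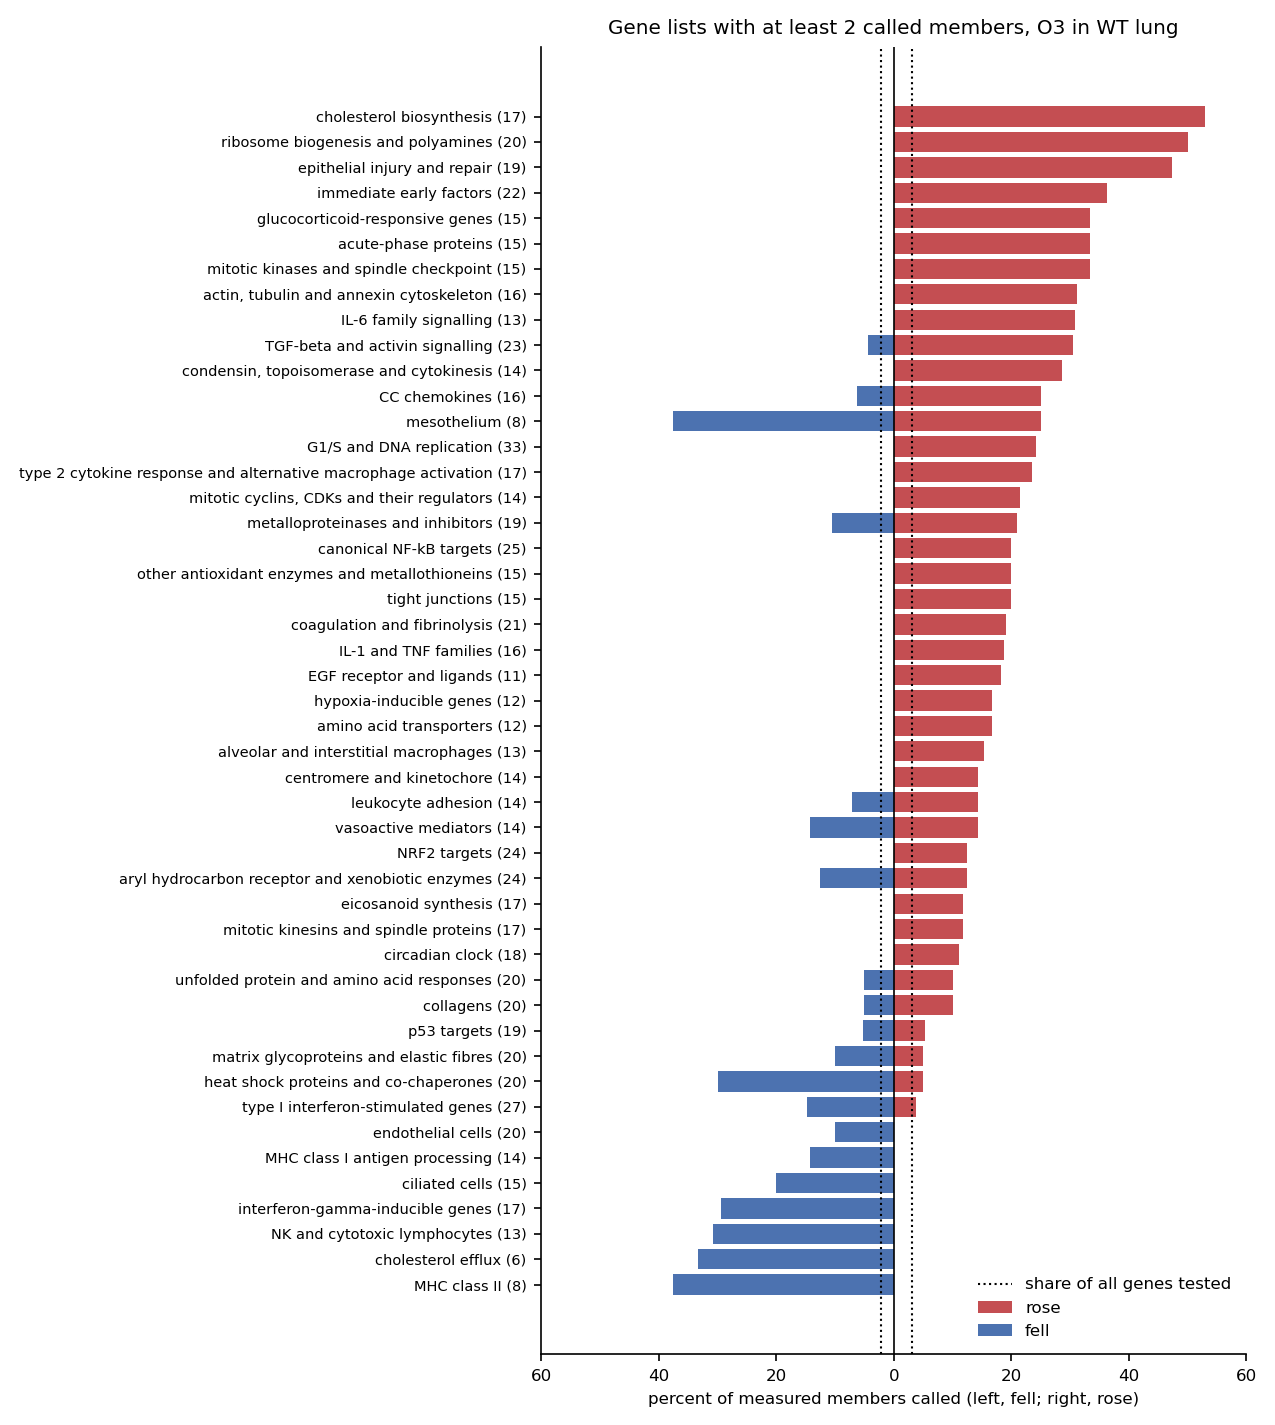
Percent of measured members called per gene list (bars to the right, rose; to the left, fell), for the 47 of 75 lists with at least 2 called members, with the number measured in brackets. Dotted lines mark the share of all genes tested, 3.16% for rises and 2.24% for falls. Cholesterol biosynthesis, ribosome biogenesis and epithelial injury have the longest bars to the right, and MHC class II, mesothelium and cholesterol efflux the longest to the left.

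The inflammatory mediators that rose were few. Il6 was at 3.03, 4.11 and 4.21 in air, all below the lower limit, and at 6.88, 7.61 and 7.23 after O3, at least 7.31-fold higher (adjusted p = 0.00049). Of 13 genes of IL-6 family signalling, 4 rose and 0 fell. Socs3, the feedback inhibitor that IL-6 type cytokines induce, went from 10.35, 10.33 and 10.26 to 11.69, 11.73 and 11.77 (2.67-fold, adjusted p = 0.00049) with no overlap and little spread within either group. The cytokine Lif (2.36-fold) and the oncostatin M receptor Osmr (1.71-fold) were the other members. In the list of 15 acute-phase genes 5 rose and 0 fell, and Socs3, already counted above, was among the rises. Lcn2, the iron-withholding lipocalin, went from 10.98, 10.94 and 11.25 to 13.01, 12.92 and 13.09 (3.87-fold, adjusted p = 3.2e-05), Saa3 rose 4.44-fold, Serpina3n 3.67-fold and Lrg1 2.90-fold. Il33, an alarmin of injured epithelium, rose 1.64-fold, and the IL-1 receptor antagonist Il1rn 2.04-fold.

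Among 16 CC chemokines 4 rose and 1 fell. Ccl17, which attracts CCR4-bearing T helper 2 and regulatory T cells, went from 8.38, 7.45 and 7.34 to 10.42, 10.59 and 10.05 (6.19-fold, adjusted p = 0.00051), and its companion ligand Ccl22 rose 3.33-fold. Ccl2, which recruits monocytes, was at 6.64, 5.86 and 5.25 in air and 7.90, 7.68 and 7.77 after O3 (3.65-fold). The related Ccl7 was at least 3.07-fold higher. For these ligands no air mouse reached the level of any O3 mouse. Ccl9 fell 2.04-fold. Of the 16 CXC chemokines only Cxcl16 rose (1.40-fold), with 0 rises by limma without WT-Air replicate 1, whereas the neutrophil attractants Cxcl1 (0.87 ± 0.26, adjusted p = 0.081), Cxcl2 (0.90 ± 0.48) and Cxcl5 (0.99 ± 0.57) had positive log2 changes that were not called. For Cxcl1 the change was 0.27 ± 0.16 (adjusted p = 0.383) when the 6 WT arrays were normalised and fitted by themselves. The count of CC chemokines that rose was 2 without WT-O3 replicate 2.

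Genes of alternatively activated macrophages and the type 2 response shared this direction, with 4 of 17 rising and 0 falling. Besides Ccl17 and Ccl22 these were Il4ra (1.62-fold), the receptor chain for IL-4 and IL-13, and the macrophage lectin Chil3 (1.36-fold). The count was 2 without WT-O3 replicate 3. The scavenger receptor Marco of alveolar macrophages rose from 8.67, 9.01 and 9.73 to 10.24, 10.33 and 9.95 (2.05-fold, adjusted p = 0.02). Of 25 canonical NF-κB targets 5 rose and 0 fell, among them Icam1 (1.64-fold), an adhesion molecule for leukocytes, and Bcl3 (1.82-fold), a nuclear IκB protein. The count was 3 without WT-Air replicate 3.

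Genes of haemostasis and wound matrix were among the rises. F3 encodes tissue factor, which starts coagulation, and went from 10.81, 10.29 and 9.86 to 12.19, 12.56 and 12.29 (4.08-fold, adjusted p = 0.0003). Thbs1, thrombospondin-1, was at 10.005, 9.94 and 9.66 in air and 11.85, 12.13 and 11.72 after O3 (4.09-fold, adjusted p = 4.4e-05). All O3 mice exceeded all air mice in both genes. Tfpi2, a Kunitz-type inhibitor, rose 2.21-fold, so that with Plaur 4 of 21 genes of coagulation and fibrinolysis rose and 0 fell. Timp1, the inhibitor of matrix metalloproteinases, was the fifth of the 15 largest rises, from 9.12, 9.10 and 8.68 to 12.05, 12.23 and 12.13 (9.02-fold, adjusted p = 4.4e-05). The proteases Adamts4 (5.77-fold), Mmp3 (1.96-fold) and Mmp19 (1.84-fold) rose, while Mmp2 (1.64-fold) and Adamts5 (1.94-fold) fell. The count of rises among the 19 metalloproteinases and inhibitors was 4, and 2 without WT-Air replicate 1. Tnc, tenascin-C, a matrix protein of wounds, rose 3.76-fold.

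Structural matrix went down in part. Fbln1, fibulin-1 of elastic fibres, fell from 11.48, 11.12 and 10.83 to 9.67, 9.58 and 9.78 (2.77-fold, adjusted p = 0.00049). Thbs3, a thrombospondin of a different subgroup from Thbs1, fell from 10.25, 10.26 and 10.13 to 8.37, 8.26 and 8.63 (3.47-fold, adjusted p = 0.0028). Neither gene showed overlap between the groups. Col14a1, a fibril-associated collagen, fell 2.33-fold and Mfap5 1.62-fold, whereas the basement membrane collagen Col4a2 rose 1.35-fold and Col13a1 1.54-fold, 2 rises that became 0 by limma without WT-O3 replicate 1. Over all 20 collagens the median change was -0.13. Of the 23 genes of TGF-beta and activin signalling, 7 rose and 1 fell, led by Fst, the activin-binding protein follistatin (3.41-fold), and the matricellular factors Ccn1 (2.15-fold) and Ccn2 (1.76-fold), while the ligand Tgfb3 fell 1.65-fold. This count was 3 without WT-Air replicate 3. Igfbp3, which binds insulin-like growth factors, fell from 11.45, 10.95 and 11.17 to 9.95, 9.95 and 9.69 (2.52-fold, adjusted p = 0.00049).

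Of 22 genes of the immediate early class, 8 rose and 0 fell, with 21 changes positive and a median of 0.60. The AP-1 subunits Fosl1 (at least 4.39-fold), Fosb (3.02-fold), Fosl2 (1.59-fold), Junb (1.57-fold) and Jun (1.46-fold) were among them, with Maff (1.91-fold, adjusted p = 0.00068) and Klf4 (1.79-fold). Maff, a small MAF protein, went from 9.30, 9.25 and 9.28 to 10.31, 10.33 and 9.97. Fos itself had a log2 change of 0.70 ± 0.22 and was not called (adjusted p = 0.097). The count was 2 without WT-O3 replicate 2. The AP-1 site, searched as TGANTCA, a motif added after the values were seen, was present in 3 of 11 of the 15 largest rises with a sequence (27.3%), in 0 of 13 of the 15 largest falls and in 6.57% of tested genes. The windows of Sprr1a (chr3:92485938-92486057, minus strand), F3 (chr3:121723342-121723461, plus strand) and Cldn4 (chr5:134947033-134947152, minus strand) are printed because they hold this motif, in capitals. All 3 genes rose, and Cldn4 is not one of the 15 largest rises.

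Sprr1a: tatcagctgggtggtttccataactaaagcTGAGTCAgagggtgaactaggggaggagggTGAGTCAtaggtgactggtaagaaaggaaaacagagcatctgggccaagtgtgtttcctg
F3: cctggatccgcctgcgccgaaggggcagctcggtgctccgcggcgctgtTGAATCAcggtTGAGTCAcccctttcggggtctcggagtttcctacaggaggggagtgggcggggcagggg
Cldn4: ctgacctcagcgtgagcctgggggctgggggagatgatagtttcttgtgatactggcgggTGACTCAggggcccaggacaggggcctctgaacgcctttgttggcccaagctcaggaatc

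**Figure D4:**
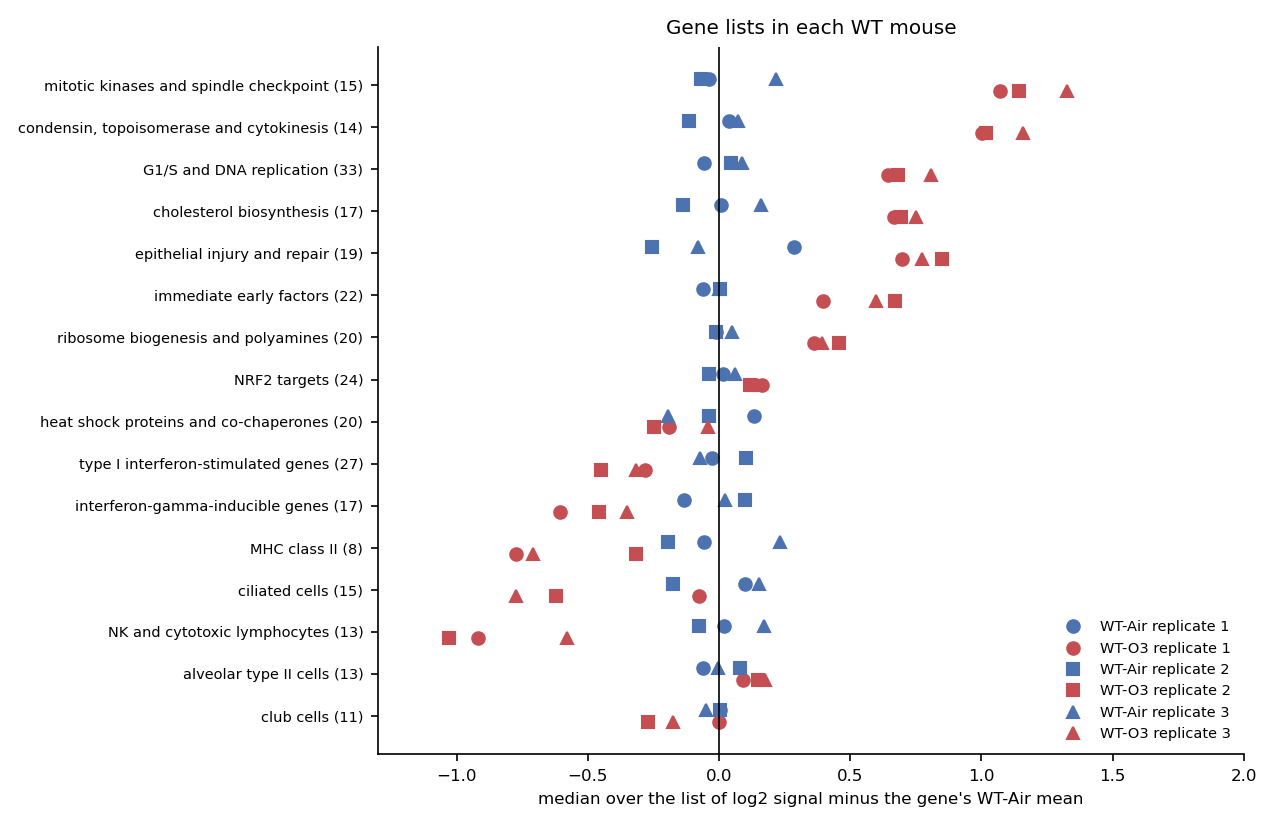
For 16 gene lists (members measured in brackets), the median over the list of each gene's log2 signal minus its WT-Air mean (x axis) in each WT mouse, blue for air and red for O3, with the symbol giving the replicate. The 3 O3 mice lie right of the air mice for 8 lists, from mitotic kinases down to NRF2 targets, and by a small margin for alveolar type II cells, and left of them for 4 lists, the 2 interferon lists, MHC class II and NK cells. For ciliated cells, WT-O3 replicate 1 lies among the air mice.

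By the same rule the largest fall was in Cyp1a1, a cytochrome P450 that the aryl hydrocarbon receptor induces. It went from 9.73, 9.41 and 9.69 to 7.32, 6.26 and 6.92 (6.84-fold lower, adjusted p = 0.00086), with every O3 mouse more than 2 log2 units below every air mouse. Cyp2s1 fell 2.15-fold and the receptor gene Ahr 1.40-fold. Other enzymes of drug metabolism rose, namely Cyp2b10 (1.66-fold), Sult1a1 (1.72-fold) and Cyp2d22 (1.43-fold), so that 3 of 24 genes rose and 3 fell. The rises became 1 without WT-Air replicate 1. Sbspon, a secreted somatomedin B and thrombospondin domain protein (3.97-fold), Sstr4, a somatostatin receptor (2.58-fold), Scube2 (2.54-fold), Gas1 (2.52-fold) and Npr3, the clearance receptor for natriuretic peptides (2.47-fold), completed the large falls outside the lists, together with Adgre4 (2.95-fold), an adhesion receptor of macrophages. Tex9 also fell 2.95-fold, but only 2 of its 4 probe sets had a negative change.

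Genes of cytotoxic lymphocytes and of interferon responses were among the falls. All 13 NK and cytotoxic lymphocyte markers had a negative change, the median was -0.90, and 4 fell while 0 rose. Gzma, granzyme A, went from 9.66, 9.49 and 10.04 to 8.28, 8.33 and 8.76 (2.42-fold, adjusted p = 0.0061), and Eomes, a transcription factor of NK and CD8 T cells, from 6.92, 6.76 and 6.53 to 5.20, 4.95 and 4.58 (3.55-fold, adjusted p = 0.0061). Air and O3 mice did not overlap in either gene, and the summed signal of the list was 2686 to 3430 in WT-Air and 1322 to 1758 in WT-O3. Gzmb fell 2.01-fold and Klrd1, the CD94 receptor chain, 2.23-fold. The count was 2 without WT-Air replicate 3. T cell (0 of 14) and B cell markers (0 of 9) had no call by limma. In each list 1 gene was at an unadjusted p under 0.05, as were 19.7% of all genes tested. The change was negative for 12 T cell markers (median -0.35) and 7 B cell markers (median -0.44). Plasma cell markers (0 of 10 called by limma) had 7 negative changes and a median of -0.76, with 6 at an unadjusted p under 0.05. Without both arrays that stood apart these medians were -0.24, -0.06 and -0.52.

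Of 17 interferon-gamma-inducible genes 5 fell and 0 rose, with a median of -0.51, all of them GTPases of immune defence. Gbp6 went from 10.02, 9.80 and 9.99 to 8.22, 8.14 and 8.90 (2.87-fold, adjusted p = 0.0074), Gbp3 fell 2.10-fold, Gbp2 1.93-fold, Gbp7 1.61-fold and Ifi47 1.53-fold. The guanylate-binding proteins are close paralogs, so that their probe sets may share signal. The count was 2 without WT-O3 replicate 2. Type I interferon-stimulated genes fell in 4 of 27 cases, Cmpk2 (1.88-fold) with the smallest p, Ifit1 (1.78-fold), Oas1a and Trim30a, and rose in 1, Ifit3 (1.77-fold). The count of falls was 1 without WT-Air replicate 1. All 8 MHC class II genes had a negative change, and H2-Ab1 (1.69-fold), H2-Eb1 (1.65-fold) and H2-Aa (1.48-fold) fell. The median of the list was -0.63, and -0.41 without both arrays that stood apart. Without WT-Air replicate 3 alone 0 of the 8 were called by limma. The summed signal of 9 B cell markers, highest in that array by their median, lay between 2311 and 6607 in WT-Air and between 2041 and 3153 in WT-O3, and its part in the result was not tested. In MHC class I processing the peptide transporter Tap1 (1.45-fold, with 2 of its 4 probe sets negative) and the immunoproteasome subunit Psmb9 (1.51-fold) fell, 2 falls that became 0 by limma without WT-Air replicate 2.

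Markers of resident cell types moved in different directions. All 15 ciliated cell markers had a negative change (median -0.58) and 3 fell, Lrrc23 (1.82-fold), Ccdc39 (1.80-fold) and Tppp3 (1.60-fold), and 0 of the 15 were called by limma without WT-Air replicate 1. The summed signal of the list was 20783 to 25124 in WT-Air and 13593 to 18747 in WT-O3. Club cell markers (0 of 11 called by limma, 3 at an unadjusted p under 0.05, as were 19.7% of all genes tested) had a median of -0.11. Alveolar type II markers had a summed signal between 151529 and 162987 in WT-Air and between 171143 and 175736 in WT-O3, and 1 of 13 rose, Ctsh (1.86-fold), a protease that processes surfactant protein, against 4 of 13 without WT-Air replicate 2. Of 12 alveolar type I markers Hopx rose 1.25-fold, with 0 rises by limma without WT-Air replicate 1 and 3 without WT-Air replicate 2. Neutrophil markers showed no call (0 of 12 by limma, 2 at an unadjusted p under 0.05, beside the same 19.7%) and a median of -0.01.

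Markers of the mesothelium, the cell sheet that covers the lung, fell in 3 of 8 cases. Upk3b, a uroplakin of mesothelial cells, went from 12.49, 11.81 and 12.34 to 10.66, 11.07 and 10.94 (2.51-fold, adjusted p = 0.0034), Lrrn4 from 10.98, 10.28 and 10.63 to 8.77, 9.61 and 9.28 (2.65-fold, adjusted p = 0.0067) and Rspo1, a WNT potentiator, from 10.22, 9.93 and 10.26 to 8.63, 9.22 and 9.14 (2.20-fold). In all 3 genes the air mice lay above the O3 mice. These 3 genes stayed called whichever single array was left out, and 0 of the 8 fell by limma when arrays were centred on their medians. The keratins Krt8 and Krt19 of the same list, which epithelium also makes, rose as given above.

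Vascular genes changed around apelin. Aplnr, the apelin receptor of endothelium, fell from 12.51, 12.65 and 12.69 to 11.19, 11.25 and 11.57 (2.43-fold, adjusted p = 0.018), its ligand Apln fell 1.76-fold, and the VEGF receptor Kdr 1.49-fold. The vasoactive peptides Adm (1.97-fold) and Edn1 (1.58-fold) rose, and 0 vasoactive mediators rose by limma without WT-Air replicate 3. Over 20 endothelial markers the median was -0.13 and 2 fell, against 0 by limma without WT-O3 replicate 1. Stab1, a scavenger receptor of sinusoidal and macrophage surfaces, fell from 9.12, 9.93 and 9.31 to 7.92, 8.13 and 8.33 (2.52-fold). Slc4a1, the anion exchanger of red cells, fell 5.26-fold (8.53, 8.48 and 6.90 against 5.13, 5.76 and 5.84), and the 4 erythroid markers had a summed signal between 3204 and 5404 in WT-Air and between 1653 and 3586 in WT-O3. The part of blood left in the lung in these values was not tested.

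In Nfkb1-deficient mice the same exposure gave the same sign of change for 28 of the 30 largest rises and falls, and 20 of them were called there, where 6.18% of all genes tested were called. Over the 949 genes called in WT, 95.8% had the same sign in Nfkb1-deficient mice, against 66.2% of all genes. The difference between the genotypes was called for 6 genes (0.0342%). Because the mice also differed in stock, a difference between the genotypes here can be one of stock. Psca had mean log2 signals of 3.16 in air and 4.07 after O3 in Nfkb1-deficient mice, both below the lower limit of 4.37, so that no size is given for its change there. For Sprr1a the log2 change was 4.59 in WT and 2.53 in Nfkb1-deficient mice (adjusted p of the difference 0.17). Thbs1 (2.03 and 1.99), Tgm1 (2.07 and 2.08) and Fbln1 (-1.47 and -1.43) had nearly the same change in both. Others changed less in Nfkb1-deficient mice, such as Fbp2 (3.28 and 0.21), Hells (1.91 and 0.43) and Lrrn4 (-1.41 and -0.24). The median absolute log2 change of the 949 genes was 0.637 in WT and 0.456 in Nfkb1-deficient mice, against 0.255 and 0.275 over all genes tested. Choosing genes by their WT change by itself favours the larger value in WT. A test that misses the threshold does not show that the genotypes respond alike. Gbp6 was the only one of the 30 whose difference was called (-1.52 and 1.20, adjusted p = 0.031).

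**Figure D5:**
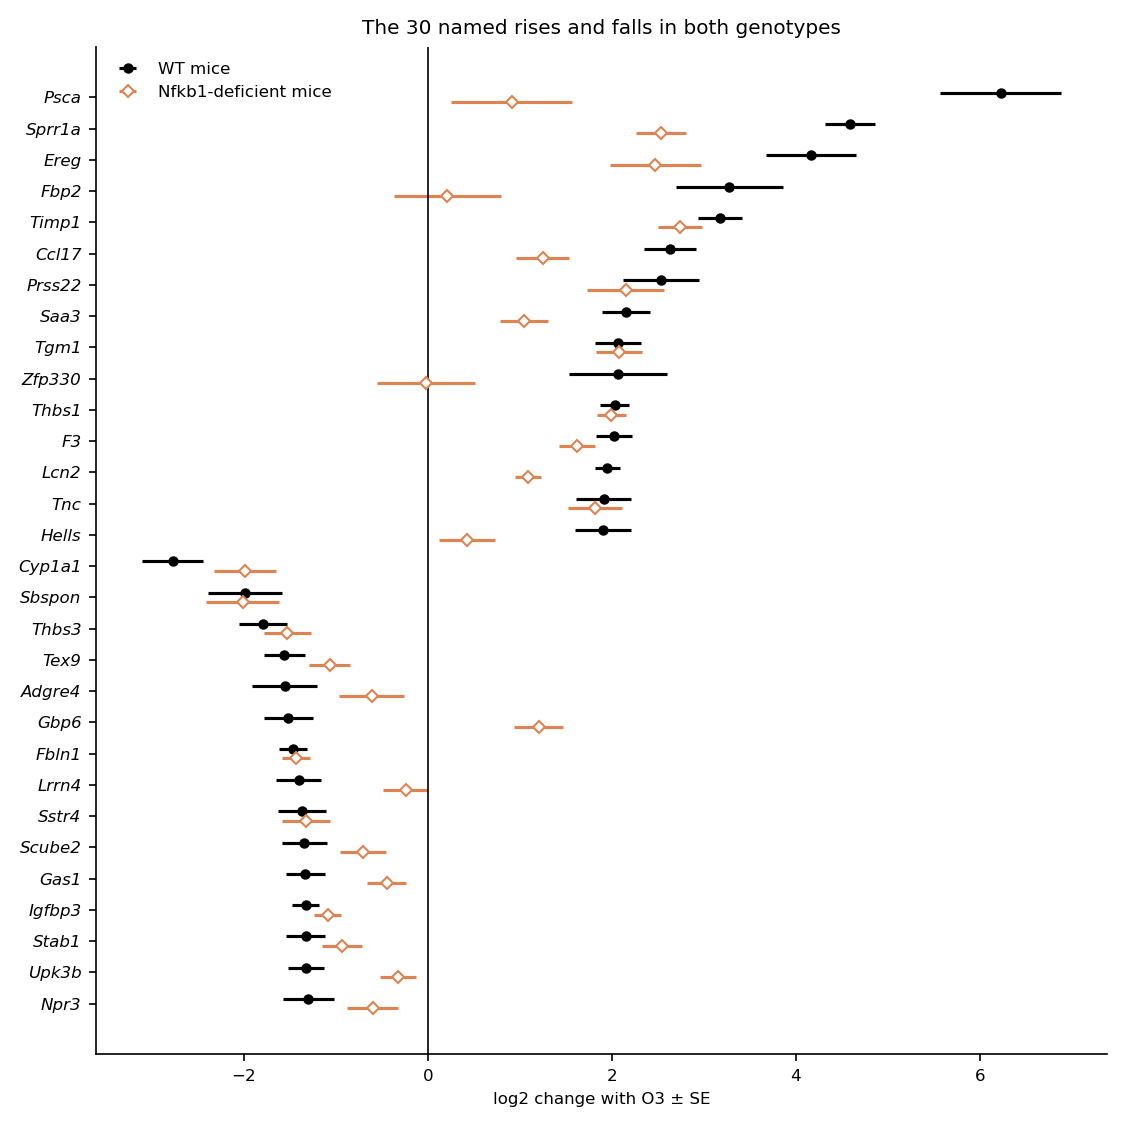
Log2 change with O3 ± SE from the limma fit (x axis) for the 15 largest rises and 15 largest falls of WT lung, in WT mice (black circles, 3 air and 3 O3 mice) and Nfkb1-deficient mice (open orange diamonds, 3 and 3). Most diamonds lie on the same side of 0 as the circles; Gbp6 lies on the other side and Zfp330 at 0. The diamond of Psca rests on signals below the lower limit.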

How the data were processed

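Total RNA of the left lung was hybridised to Affymetrix Mouse Genome 430 2.0 arrays, 1 colour and 1 mouse per array. The authors had deposited 1 signal intensity per probe set and array, computed with MAS5 in Expression Console (versions not given in the sources used here) on a linear scale with a trimmed mean near 500 per array. Signals were raised to at least 1, taken to log2 and quantile normalised over 12 arrays. Of 45101 probe sets, 64 Affymetrix controls were set aside, a step absent from the written design, and 42559 passed the 20th percentile (log2 4.37) in at least 1 array. The annotation gave 34958 probe sets 1 symbol, 932 several and 9211 none. The probe set with the highest mean stood for each of 17569 genes. Of 600 called genes with several probe sets, only 406 had all of them changed in the same direction. No probe set was named Nfkb1, so the targeted gene was not analysed here.

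Group means were fitted to all 12 arrays with limma 3.58.1 (R 4.3.3) and a mean-dependent trend in the spread. Benjamini-Hochberg adjustment ran over all genes, and "rose", "fell" and "called" mean an adjusted p under 0.05. Errors are SE with n = 3 mice per group, whose number limits the precision. An exact two-sided test of 3 against 3 arrays cannot go below p = 0.1. Folds are "at least" values where the dimmer group had an array at or under 4.37, a rule added with the data in view. Named genes were the 15 largest rises and falls among called genes without overlap and above the median signal, called list members and members with the smallest p. A few uncalled genes (Krt5, Nqo1, Hmox1, Cxcl2, Cxcl5, Hmgcs1, Fos, Pttg1, Sftpc, Scgb1a1) were picked with their values known. The 75 lists hold 1137 genes, 1044 measured. The comparison, lists and named genes were chosen with earlier results of these data known. Promoter windows came from RefSeq (GRCm38.p6), matched by symbol. The procedure was tested on simulated data.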

Additional observations from a re-analysis of the deposited data

Results flagged for a closer look

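The O3 change differed between WT and Nfkb1-deficient mice, by the interaction test of limma, for 4 of the genes described above, all GTPases inducible by interferon-gamma. They fell in WT and were higher after O3 in Nfkb1-deficient mice. The part of stock, which differed along with genotype, was not tested. The difference in log2 change (Nfkb1-deficient minus WT) was 1.78 for Gbp2 (adjusted p = 0.014), 2.72 for Gbp6 (adjusted p = 0.031), 1.65 for Gbp7 (adjusted p = 0.029) and 1.73 for Ifi47 (adjusted p = 0.007).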

How the results depend on the processing

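Of 178 genes described above, 166 were called, and all but 3 of the 178 kept their direction under every alternative in which they were tested (175 were tested when signals had to exceed the array median). The exceptions came when the probe sets of a gene were averaged, where the log2 change was -0.16 for Cgn, -0.05 for Slc38a2 and 0.33 for Tap1. Since 166 of the 178 were picked as called, a change of sign was unlikely from the start. The median log2 change kept its sign in 67 of the 75 lists without WT-Air replicate 1. With 1 of the other WT arrays left out it did so in 71 or 72. The 949 calls became 87 with arrays centred on their medians (459 over the 6 WT arrays alone and 783 without Nfkb1KO-Air replicate 1, alternatives added after the data were seen), 435 when the spread had no trend, 524 with probe sets averaged and 1548 with array weights. With 1 array left out the count ranged from 292 to 1316. The cause was not tested. An ordinary equal-variance t-test of the 6 WT arrays gave 1237 genes at p under 0.01 and 5 after Benjamini-Hochberg adjustment, 5 rises and 0 falls. It is not the paper's procedure, since the paper's legends name a moderated t-test and its methods give that adjustment with the two-way ANOVA. Of the 166 genes, 50 stayed called with median centring and 87 to 165 with 1 array left out. The 6 genotype by O3 calls became 10 with median centring, 11 with the deposited scaling, 15 with array weights, 0 by limma without the trend (993 at an unadjusted p under 0.05) and 1 to 9 with 1 array left out. Mice with the same replicate number deviated together only weakly (correlations 0.107, 0.0125 and -0.00478), and the main model did not pair them. With 3 arrays per group this does not show that they were unpaired. With the replicate number as a block 725 genes were called for O3 and 4 for the interaction. Of the 166 genes, 7 lost their call with the deposited scaling, 5 with a floor of 16, 4 without the filter and 23 with quantiles of the 6 WT arrays. In a fit of these arrays alone 25 lost it, with the block 22, and without both arrays that stood apart 32. With probe sets averaged 50 lost it, when the spread had no trend 66, and by the ordinary t-test after adjustment 165. Signals below a log2 of 4.37 limit Psca, Ereg, Il6, Ccl7 and Fosl1 to lower bounds.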

Other observations

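Further gene groups had a few calls in WT lung after O3. Of 15 glucocorticoid-responsive genes 5 rose and 0 fell, at a median log2 change of 0.58. Besides both metallothioneins and Sult1a1 these were Fkbp5, a co-chaperone of the glucocorticoid receptor (1.78-fold), and the kinase Sgk1 (1.43-fold), and the count was 2 without WT-Air replicate 1. The clock repressors Per2 (2.14-fold) and Bhlhe40 (1.84-fold) were the 2 of 18 clock genes called, and the count was 1 without WT-O3 replicate 1. Slc26a4, the anion exchanger pendrin, rose from 8.64, 7.59 and 8.01 to 9.68, 10.02 and 9.23 (2.96-fold, adjusted p = 0.0065), the 1 call among 13 genes of ion and water transport. Amino acid supply was represented by Slc6a14 (2.04-fold), Slc38a2 (1.40-fold, 1 of 3 probe sets positive) and the serine synthesis enzyme Psat1 (2.32-fold). The annexins Anxa3 (1.86-fold) and Anxa1 (1.49-fold) and the tubulins Tubb6 (1.88-fold) and Tubb5 (1.36-fold) were among 5 rises in 16 cytoskeletal genes, 2 without WT-Air replicate 3.

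Of 20 heat shock proteins and co-chaperones, 6 fell and 1 rose. The small heat shock protein Hspb1 went from 13.65, 13.45 and 13.83 to 13.09, 13.02 and 12.89 (1.56-fold lower, adjusted p = 0.0062) and Hsph1 fell 1.78-fold, whereas the co-chaperone Dnajb1 rose 1.78-fold. The 6 falls became 1 without WT-Air replicate 1. Complement genes had 15 of 16 changes below 0 (median -0.39) with 1 call, C1s1 (1.64-fold lower), and 3 without WT-Air replicate 2. Of the 75 lists, 14 with 139 measured members had no call by limma, among them glycolysis, smooth muscle, monocytes and plasma cells, and 33 of these members were at an unadjusted p under 0.05, as were 19.7% of all genes tested.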
